A study of Cavia porcellus with 6 samples.

Results

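The proteasome genes of guinea pig sclera were taken from a table of read counts as the identifiers that spell Psm, a letter from a to g and a number. Among 32193 identifiers, 48 matched, and the 46 with a summed count of at least 10 over the 6 libraries are described here. The other 2, Psma8 and Psmb11, which encode the testis and thymus forms of a core subunit, had 0 counts in every library, which allows up to 3 counts per library or 0.156 to 0.296 CPM (counts scaled to library size, the unit used throughout). The 46 genes fall into 7 alpha and 7 beta subunits of the core, 3 immunoproteasome subunits, 6 ATPases and 11 other subunits of the regulatory cap, 7 assembly factors, and 5 further activators and inhibitors. The sclera is the tough collagenous coat of the eye, and each library was made from its posterior pole in a right eye taken on day 28. In the FDM group, with 3 libraries, the eyes were form-deprived, a standard way of inducing myopia by removing sharp vision, and in the NC group, with 3 libraries, they were controls. Strain, age, sex and the way the eye was covered are not stated in the labels, and no library is labelled as treated with quercetin, which the series title names. Each library was taken to be a separate animal because only right eyes were used; where it is not, p-values measure only the spread between these samples.

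The proteasome is the barrel-shaped protease that degrades most short-lived and misfolded proteins of the cytosol and nucleus after they have been tagged with ubiquitin. Its core stacks rings of alpha subunits, which gate the entry pore, around rings of beta subunits, which hold the catalytic sites. The regulatory cap recognises ubiquitin, removes it, and unfolds the substrate with a ring of ATPases. Under interferon, cells replace the catalytic beta subunits with immunoproteasome forms that favour peptides for MHC class I, and when proteasome activity falls short the transcription factor encoded by Nfe2l1 is known to raise most subunit genes together.

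The libraries held 12048216, 15025573 and 16181865 counts for the FDM libraries 1 to 3. The NC libraries 1 to 3 held 10377397, 13811527 and 17534982 counts. The libraries numbered 1 had counts for fewer genes, 12783 in FDM 1 and 14416 in NC 1, against 17689 to 20591 in the other 4. Fibroblast markers were present throughout, at 16276.5 to 62882 summed CPM in FDM and 6375.5 to 56224 in NC. The 10 of them had a median log2 fold change of 0.51 (Col3a1 1.43, Fbln1 0.87), but with a single library left out it ran from -0.31 without FDM 3 and 0.029 without NC 2 to 1.26 without NC 1, and 0 passed the test described below. Other tissues were also present and uneven: 9 skeletal muscle markers summed to 59022, 61196 and 10060.0 CPM in FDM, against 103, 15954 and 24867 CPM in NC. The 9 photoreceptor markers summed to 203, 1359.8 and 10834 CPM in FDM, against 7099.6, 23450.3 and 426 CPM in NC. Muscle markers had a median of 1.91 (Mybpc2 2.499, Tnnc2 2.16), which was 1.33 to 2.41 with a single library left out, and 0 passed. It was 0.67, with 7 of 9 positive, without both libraries numbered 1, and 3.53 in limma-voom. Photoreceptor markers had a median of -1.35 (Rcvrn -1.78, Prph2 -1.86), which ran from -4.13 without FDM 3 to -0.16 without NC 2, and 0 passed. The 7 pigment epithelium markers had a median of -0.69 (Rgr -1.86, Rlbp1 -1.27), which was -1.14 to -0.42 with a single library left out, and 0 passed. The 7 melanocyte markers were at 0 in FDM 1 and summed to 30.9 CPM in FDM 2 and 258.5 CPM in FDM 3, against 61.1 to 101.5 CPM in NC. Their median of 0.65 (Dct 1.27, Tyrp1 1.199) rested on FDM 3, being -4.09 with 0 of 7 positive without it; it was 1.23 without FDM 1 and -1.78 in limma-voom, and 0 passed. Fewer cells of a type and less RNA per cell cannot be told apart in such samples, and the part of this mixture in the values below was not tested.

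No proteasome gene differed between FDM and NC beyond the spread between libraries. In edgeR's quasi-likelihood test, adjusted by Benjamini-Hochberg over 16348 genes, 0 of 46 proteasome genes had an adjusted p below 0.05, the smallest being 0.999999, and 0 had an unadjusted p below 0.05. This equals the background, since the test called 0% of all genes and 156 had an unadjusted p below 0.05. The estimates leaned upward: 36 of the 46 log2 fold changes were positive, against 8368 of 16348 over all genes, and their median was 0.26, against 0.020. Single estimates ran from -0.61 for Psmd12 to 1.69 for Psmg3, with standard errors of 0.38 to 2.10 and a median standard error of 0.47.

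That upward lean depended on which libraries were included. Without FDM 1 the median of the 46 genes was 0.020, with 24 positive, where all genes had a median of 0.061. Without FDM 3 it was 0.42, with 38 positive, where all genes had a median of -0.18. Leaving out both libraries numbered 1 gave 0.011, with 25 positive. Scaling by total count alone, which set the median of all genes at -0.23, gave -0.0027 with 21 positive. Under that scaling the medians of the beta ring, the non-ATPase cap genes and the immunoproteasome genes were also below 0, at -0.13, -0.10 and -0.17.

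**Figure D1:**
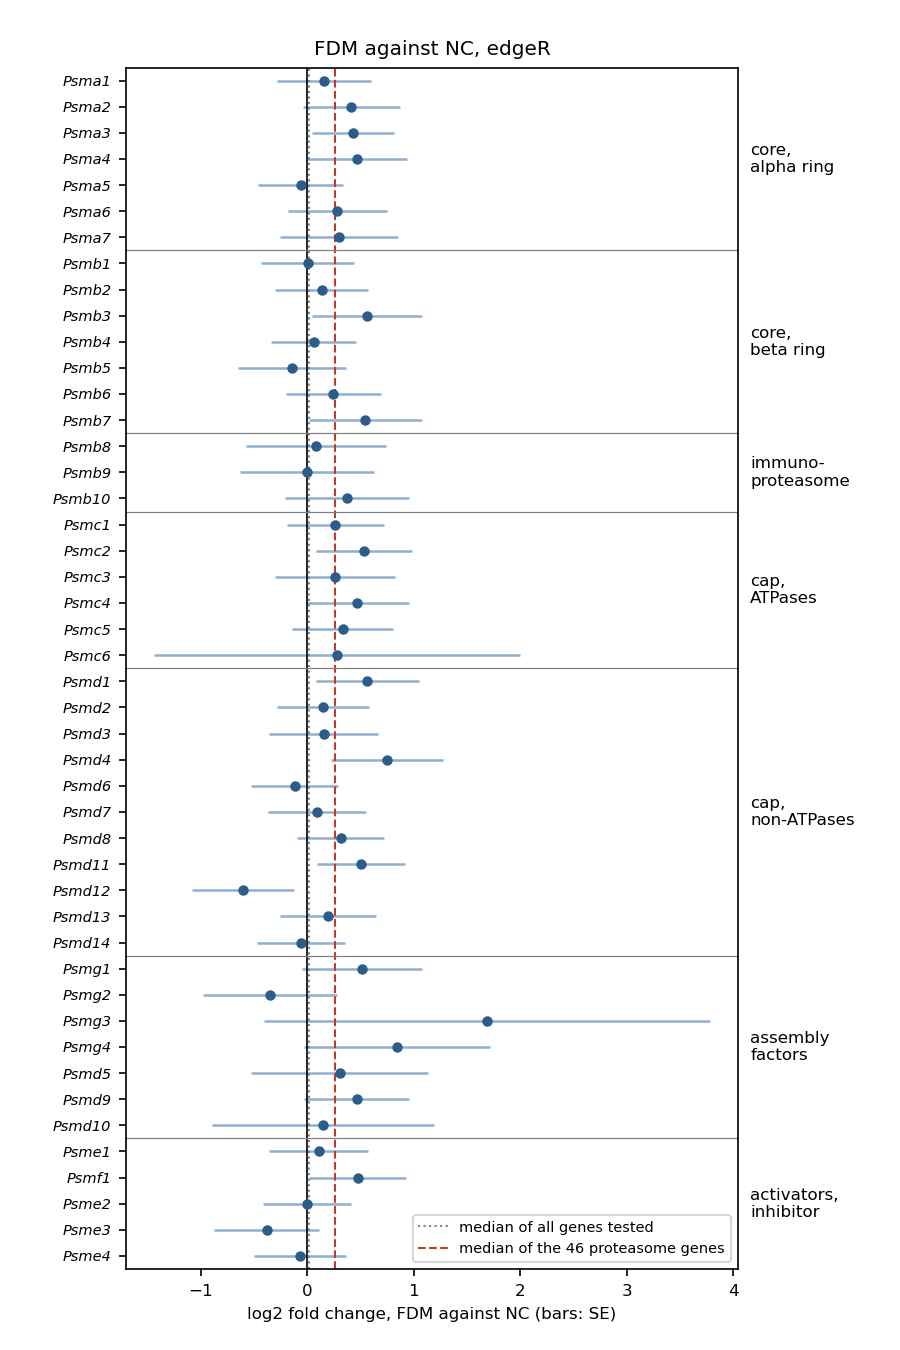
Log2 fold change of FDM against NC for each of the 46 proteasome genes in edgeR's fit (points; bars are standard errors), grouped by place in the complex, with dashed and dotted lines at the medians of the proteasome genes (0.26) and of all genes tested (0.020). All 6 ATPases lie right of 0 here, 4 of 6 without FDM 1, and Psmc6 has an SE of 1.72; none of the 46 genes passed the test.

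The widest contrast lay inside the FDM group. The proteasome genes together took 0.569% of all counts in FDM 1 (95% Wilson interval 0.564 to 0.573%), 0.516% in FDM 2 and 0.281% in FDM 3 (0.279 to 0.284%). In NC 1, 2 and 3 they took 0.478%, 0.435% and 0.490%. These intervals cover counting error only. FDM 1 and FDM 2 were thus above every control library, and FDM 3 was below every control library.

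Gene by gene the same order returned. FDM 3 was the lowest FDM library for 37 of 46 proteasome genes, or 80.4%, against 29.0% of all genes tested, and for 30 (65.2%, against 19.0% of all genes) FDM 1 was above FDM 2 and FDM 2 above FDM 3. For 27 genes the FDM values reached both above and below all 3 NC values (58.7%, against 25.8% of all genes). The median gap between the highest and lowest FDM library was 1.37 on the log2 scale for proteasome genes and 1.82 for all genes, and between NC libraries 0.67 and 1.39. FDM 1, which had counts for the fewest genes, was the lowest of all 6 libraries for 42.3% of all genes tested and for 10.9% of proteasome genes. That lowers the all-gene shares given for the FDM order, and the genes behind them were not matched to proteasome genes by read count. These shares describe 6 libraries and were not tested.

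**Figure D2:**
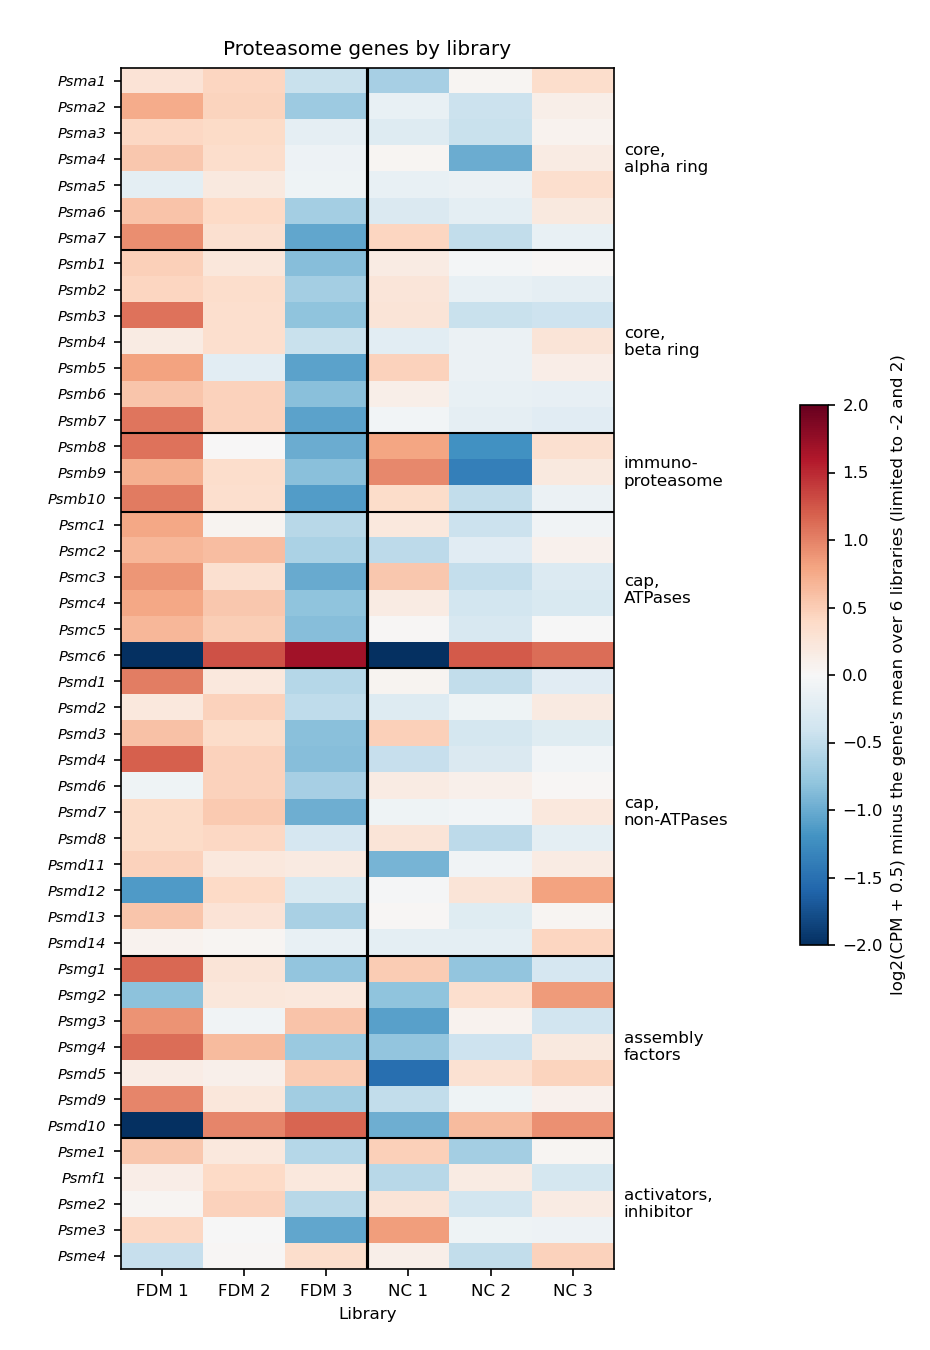
Each row is a proteasome gene and each column a library; colour gives log2(CPM + 0.5) minus the gene's own mean over the 6 libraries, limited to -2 and 2. Most rows are red in FDM 1 and blue in FDM 3, while Psmc6 and Psmd10 are deep blue in FDM 1, where they had 0 and 12 counts.

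Most subunits moved together from library to library. The median standard deviation of a proteasome gene over the 6 libraries was 0.56 on the log2 CPM scale, and 0.33 after subtracting each library's median over the 46 genes. The subtracted median came from these same genes, and the drop was not compared with that of other gene sets. Psmd13, which encodes a subunit of the cap's lid, followed that median most closely, with a standard deviation of 0.093 after subtraction and 0.42 before. Some genes did not follow it, among them Psma5, Psmd14, Psmf1, Psmg2, Psmd5, Psmd10 and Psmc6. Subtraction also widened the standard deviation of Psmd11 to 0.63, against 0.49 before it, and of Psmd12 to 0.91, against 0.67. For the activator gene Psme4 it was 0.70, against 0.40 before.

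In the alpha ring, 6 of 7 genes had positive log2 fold changes, with a median of 0.30, and 0 passed the test. The median was 0.079 without FDM 1, 0.16 without NC 2, 0.53 without FDM 3 and 0.0078, with 4 of 7 positive, without both libraries numbered 1. The ring's genes ran from -0.059 ± 0.40 (SE) for Psma5 to 0.47 ± 0.47 for Psma4. Psma4 stood at 57.3, 50.4 and 36.6 CPM in FDM 1, 2 and 3, against 40.7, 19.7 and 44.0 CPM in NC 1, 2 and 3. The groups overlapped, with NC 2 well below the other 5 libraries. Psma3 stood at 96.8, 94.8 and 64.2 CPM in FDM, against 60.8, 53.2 and 76.1 CPM in NC, and its log2 fold change was 0.43 ± 0.38 (SE). Here only NC 3 reached into the FDM range. Psma7 followed the FDM order, with 406.7, 266.0 and 102.7 CPM in FDM, against 286.6, 151.2 and 191.7 CPM in NC. Psma5 did not share it, with 40.1, 53.3 and 43.7 CPM in FDM, against 41.9, 42.8 and 58.2 CPM in NC. Without NC 2 Psma4 had 0.15.

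In the beta ring, 6 of 7 genes were positive, with a median of 0.14, and 0 passed. Its median fell on the other side of 0 with 3 of 7 positive without FDM 1 (-0.0011) and without FDM 2 (-0.0065). It came to 0.049 without NC 2, 0.28 without NC 1 and 0.35 without FDM 3. Psmb3, a structural subunit, had the highest estimate, 0.56 ± 0.52 (SE), with 199.1, 118.1 and 53.3 CPM in FDM, against 112.0, 69.1 and 70.4 CPM in NC. FDM 1 was the highest and FDM 3 the lowest of its 6 libraries. The catalytic genes behaved the same way. Psmb7, which carries the trypsin-like site, stood at 254.3, 166.4 and 57.5 CPM in FDM, against 116.9, 106.4 and 103.8 CPM in NC. Its controls lay within a narrow band and FDM 1 and FDM 3 lay far on either side, giving 0.55 ± 0.53 (SE). Psmb5, the chymotrypsin-like site, averaged 76.4 ± 48.5 CPM in FDM and 84.2 ± 17.1 CPM in NC (SD, n = 3 each). Psmb6, the caspase-like site, averaged 103.9 ± 45.9 CPM in FDM and 87.7 ± 9.67 CPM in NC (SD, n = 3 each). Their log2 fold changes were -0.14 ± 0.51 and 0.24 ± 0.45 (SE). Without FDM 1 Psmb5 had -0.76 and Psmb7 and Psmb3 had 0.036 and 0.031, and without FDM 3 these 3 genes had 0.15, 0.88 and 0.87. Of all 46 genes only Psmb7 and Psmd4 had an unadjusted p below 0.05 in that last fit, and neither passed after adjustment (adjusted p = 0.99983 for both in edgeR).

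All 6 ATPase genes of the cap, whose products unfold the substrate and thread it into the core, had positive estimates, with a median of 0.31, and 0 passed. Without FDM 1 it was 4 of 6, with Psmc1 at -0.15 and Psmc3 at -0.20, and the median was 0.60 without FDM 3. They spanned 0.26 ± 0.56 for Psmc3 to 0.53 ± 0.45 for Psmc2 (SE). Psmc2 stood at 160.8, 155.7 and 65.0 CPM in FDM, against 70.2, 86.6 and 107.2 CPM in NC. FDM 1 and FDM 2 were above and FDM 3 below every control. Psmc3 stood at 450.3, 305.1 and 120.4 CPM in FDM, against 353.8, 174.9 and 201.6 CPM in NC, so that both libraries numbered 1 were high. Psmc6 went against its ring. It had 0, 153 and 236 counts in FDM 1, 2 and 3, against 7, 177 and 190 counts in NC 1, 2 and 3, while the other 5 ATPase genes had 1631 to 4568 counts in FDM 1. The 0 in FDM 1 allows up to 3 counts or 0.296 CPM, and the libraries numbered 2 and 3 held 9.90 to 14.8 CPM. Its log2 fold change of 0.28 ± 1.72 (SE) was -0.47 without FDM 3, -0.26 without NC 1 and -1.23 in limma-voom. It was 0.86 without FDM 1, 0.65 without NC 2, 0.45 without NC 3 and 0.24 without both libraries numbered 1. Without FDM 1 the median of the ring was 0.12, and leaving out both libraries numbered 1 gave 0.084.

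Among the other 11 genes of the cap 8 were positive, with a median of 0.15, and 0 passed. Without FDM 1 the median was -0.065, with 5 of 11 positive, and it was 0.033 without FDM 2, 0.082 without NC 2, 0.41 without FDM 3 and -0.090 without both libraries numbered 1. Psmd4, which encodes a ubiquitin receptor, had the smallest p of all 46 genes, with 311.3, 187.2 and 74.9 CPM in FDM, against 97.9, 111.1 and 131.0 CPM in NC. FDM 3 was its lowest library and FDM 1 its highest. The log2 fold change was 0.75 ± 0.53 (SE; 95% interval -0.43 to 1.94; unadjusted p = 0.186, adjusted p = 0.999999 in edgeR), and it was 0.21 without FDM 1 and 0.016 without both libraries numbered 1. Psmd1, a large scaffold subunit, had 302.1, 171.8 and 99.5 CPM in FDM, against 155.0, 104.9 and 127.5 CPM in NC. Its log2 fold change of 0.57 ± 0.48 (SE) was 0.070 without FDM 1. The lid genes Psmd3, Psmd6, Psmd7, Psmd8 and Psmd13 and the scaffold gene Psmd2 lay between -0.12 and 0.31.

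Psmd11, whose product clamps the lid to the core, was the only proteasome gene with all 3 FDM libraries above all 3 NC libraries. It had 139.8, 117.3 and 115.7 CPM in FDM, against 52.9, 96.4 and 113.4 CPM in NC. The groups were separated by the small gap between FDM 3 and NC 3, and NC 1 stood far below the rest. This is 1 of 46 genes, where 2.73% of all genes tested had FDM above NC without overlap, and 0 of 46 had FDM below NC, where 2.81% of all genes did. The log2 fold change was 0.50 ± 0.41 (SE; 95% interval -0.42 to 1.43; adjusted p = 0.999999 in edgeR), 0.24 without NC 1 and 0.065 without both libraries numbered 1. Against each library's median over the 46 genes, Psmd11 lay at 0.083, -0.0049 and 1.01 on the log2 scale in FDM 1, 2 and 3, against -0.88, 0.42 and 0.42 in NC 1, 2 and 3. It thus stayed level in FDM 3, where most subunits were low.

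Psmd12, another lid subunit, had the lowest estimate of the 46, -0.61 ± 0.48 (SE). It stood at 37.2, 108.2 and 65.9 CPM in FDM, against 80.2, 97.5 and 143.6 CPM in NC. FDM 1 was its lowest library, the reverse of most subunits, and without FDM 1 the estimate was -0.30, while without FDM 2 it was -1.06. Psmd14, which encodes the deubiquitinase of the cap, was flat in FDM at 45.4, 44.2 and 39.0 CPM, against 37.6, 37.5 and 58.6 CPM in NC, and had -0.056 ± 0.41 (SE).

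No immunoproteasome gene passed the test. The log2 fold change was 0.083 ± 0.66 (SE) for Psmb8, with a 95% interval of -1.40 to 1.56, -0.0032 ± 0.63 for Psmb9 and 0.37 ± 0.58 for Psmb10. Psmb8 stood at 93.8, 44.4 and 21.8 CPM in FDM, against 76.9, 18.7 and 55.5 CPM in NC. Psmb9 stood at 84.8, 65.8 and 28.7 CPM in FDM, against 100.8, 19.7 and 59.3 CPM in NC. Both were lowest in NC 2, and both libraries numbered 1 were high. Psmb10 stood at 78.1, 48.0 and 17.1 CPM in FDM, against 48.8, 26.8 and 35.0 CPM in NC, with FDM 3 the lowest. Without FDM 1 the estimate of Psmb8 was -0.60, and without NC 1 it was 0.52.

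Setting each immunoproteasome gene against the constitutive gene it replaces removes library size and gene length from the comparison between groups. Psmb8 reads were 72.3, 69.3 and 62.1% of Psmb5 reads in FDM 1, 2 and 3, against 75.1, 27.4 and 67.9% in NC 1, 2 and 3. Psmb9 reads were 63.2, 52.1 and 56.4% of Psmb6 reads in FDM, against 102.0, 24.0 and 72.6% in NC. The FDM libraries kept a narrow range in both, although Psmb8 itself spanned 4.30-fold between FDM 1 and FDM 3, and NC 2 stood below all others. Psmb10 reads were 30.8, 28.9 and 30.0% of Psmb7 reads in FDM, against 41.9, 25.3 and 33.7% in NC.

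The mean log2 ratio of Psmb8 to Psmb5 was -0.56 ± 0.11 in FDM and -0.95 ± 0.80 in NC (SD, n = 3 each), a difference of 0.38 (exact permutation test, two-sided, p = 0.8). For Psmb9 to Psmb6 the means were -0.81 ± 0.14 in FDM and -0.83 ± 1.09 in NC, a difference of 0.022 (exact permutation p = 1), and for Psmb10 to Psmb7 -1.74 ± 0.045 in FDM and -1.60 ± 0.37 in NC, a difference of -0.14 (exact permutation p = 0.7). Adjusted over the 3 pairs p was 1 for each, and 3 against 3 libraries cannot give a p below 0.1. Without NC 2 the first 2 differences were -0.076 and -0.59.

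**Figure D3:**
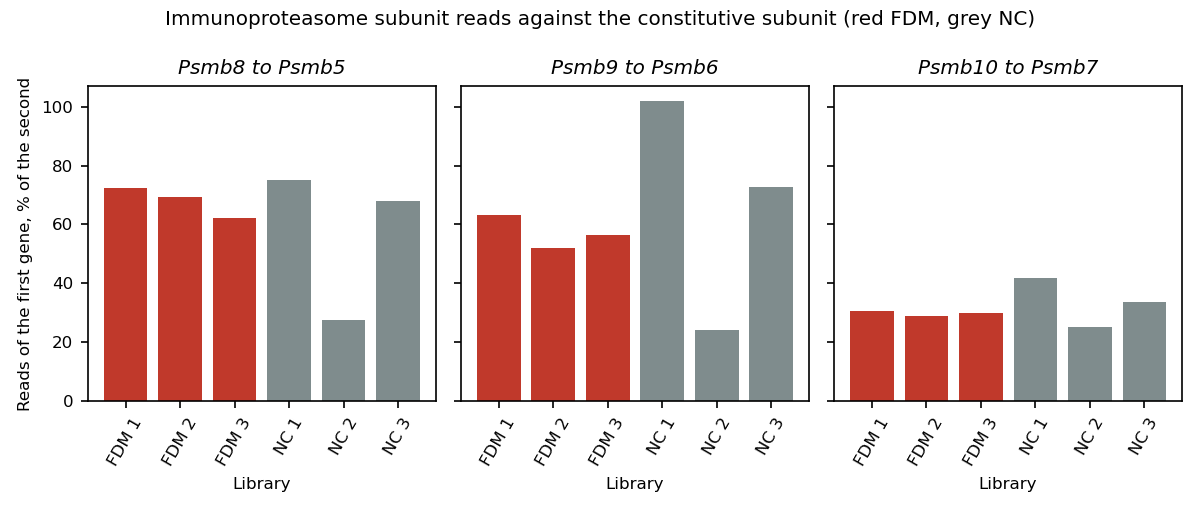
Reads of each immunoproteasome gene as a percentage of reads of the constitutive gene it replaces, by library (bars start at 0; FDM red, NC grey). The FDM libraries lie close together in every panel, and NC 2 is the lowest library in each, at 27.4, 24.0 and 25.3%.

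In the RefSeq gene table of assembly mCavPor4.1, used here for order only, Psmb8 and Psmb9 flank Tap1, a subunit gene of the transporter that carries proteasome peptides to MHC class I. Tap1 stood at 117.6, 111.0 and 58.7 CPM in FDM, against 64.4, 40.1 and 96.8 CPM in NC, and was lowest in NC 2 as well. Of 12 interferon response and class I loading genes 9 were positive, with a median of 0.54, which was 0.21 without NC 2, and 0 passed. Irf1, an interferon-induced transcription factor, had 1.48 ± 0.47 (SE), with 131.1, 54.1 and 142.6 CPM in FDM, against 35.4, 32.9 and 49.0 CPM in NC, every FDM library being above every NC library. Tapbp, which bridges the transporter to class I molecules, had 0.74 ± 0.39 (SE), and its groups did not overlap either. These were the 2 genes of smallest p in the list. They were also the only 2 of the 12 with all FDM libraries above all NC libraries, where 2.73% of all genes tested were so. Irf1 had 0.83 in limma-voom with sample weights, and Tapbp had 0.48 with total counts only. The 9 leukocyte markers tested had a median of 0.50 (Cd68 1.83, Laptm5 0.88), and 0 passed. That median was -0.90, with 3 of 9 positive and Laptm5 at 0.0040, without FDM 2, 1.08 without FDM 1, 0.95 without NC 1, 0.27 without NC 2 and -0.024 in limma-voom. These markers summed to 65.2, 443 and 163 CPM in FDM, against 241, 91.7 and 150.1 CPM in NC. In NC their sum stood in the same order as Psmb8 and Psmb9, with NC 1 highest and NC 2 lowest. Of the single markers, Csf1r, Aif1 and Cd53 kept that order. Ptprc, Cd68 and Laptm5 were highest in NC 3, and Tyrobp, Coro1a and Itgam were lowest there. In FDM both genes were highest in FDM 1, where the sum of the markers was lowest. The part of leukocytes in the immunoproteasome values was not tested.

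Assembly factors, which chaperone the complex while it is built and then leave it, had 6 of 7 genes positive and a median of 0.47, and 0 passed. The median was 0.31 without NC 1 and 0.73 without FDM 3. The alpha ring chaperone gene Psmg1 had 180.6, 98.2 and 47.1 CPM in FDM, against 116.0, 46.9 and 64.8 CPM in NC, and its 0.52 ± 0.56 (SE) was -0.064 without FDM 1. Its partner Psmg2 went the other way, with 11.6, 24.5 and 24.2 CPM in FDM, against 11.7, 26.6 and 38.3 CPM in NC, and -0.35 ± 0.63 (SE). Both libraries numbered 1 were low for Psmg2, whereas for Psmg1 both were the highest of their group. Psmg3 was barely detected, with 15, 7 and 17 counts in FDM, against 0, 10 and 6 counts in NC, so that its log2 fold change of 1.69 ± 2.10 (SE), the highest of the 46, carries the widest error. Psmg4 had 22.4, 15.9 and 5.84 CPM in FDM, against 5.58, 7.38 and 11.6 CPM in NC.

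The chaperone genes of the ATPase ring were uneven. Psmd9 had 103.9, 61.6 and 32.4 CPM in FDM, against 37.4, 49.6 and 56.2 CPM in NC, the order seen for most subunits in FDM. Psmd10, which encodes gankyrin, had 12, 292 and 384 counts in FDM, against 52, 274 and 386 counts in NC, and Psmd5 had 126, 168 and 258 counts in FDM, against 37, 230 and 296 counts in NC. Psmd10 was low in both libraries numbered 1 and Psmd5 in NC 1. Paaf1, a further chaperone of that ring outside the name pattern, shared this, with 0, 178 and 234 counts in FDM, against 6, 240 and 269 counts in NC. Pomp, which matures the beta ring, was even, with 72.1, 107.3 and 63.0 CPM in FDM, against 77.1, 68.2 and 99.9 CPM in NC. Without both libraries numbered 1 the median of the 7 assembly factors was 0.11.

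The remaining activators and the inhibitor showed no common direction, with 2 of 5 positive, a median of -0.0033 that was -0.20 to 0.16 with a single library left out, and 0 passed. Psme1 and Psme2, which form the interferon-inducible activator ring, differed by less than the spread of either group. Psme1 averaged 133.0 ± 47.9 CPM in FDM and 123.5 ± 46.8 CPM in NC, and Psme2 averaged 97.6 ± 33.0 CPM in FDM and 97.8 ± 21.5 CPM in NC (SD, n = 3 each). Psme3, the related nuclear activator, had 183.6, 137.0 and 67.3 CPM in FDM, against 247.0, 129.5 and 128.5 CPM in NC, and its -0.38 ± 0.49 (SE) was -0.0034 without NC 1. Psme4, a large single-chain activator, was highest of the FDM libraries in FDM 3, with 38.6, 54.4 and 67.8 CPM in FDM, against 57.6, 37.9 and 73.1 CPM in NC. Psmf1, which encodes a proteasome-binding inhibitor, had 34.1, 40.9 and 36.0 CPM in FDM, against 20.9, 34.8 and 24.2 CPM in NC. All FDM values were above NC 1 and NC 3, and NC 2 fell just inside the FDM range, with 0.47 ± 0.45 (SE).

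Around the complex, 17 genes of proteasome maturation, docking and transcription had 11 positive estimates and a median of 0.15, and 0 passed. The median was -0.056, with 8 of 17 positive, without NC 1 and 0.070 without FDM 3. With total counts only it was -0.14, where all genes had a median of -0.23. Ecpas, a proteasome-binding scaffold, and Zfand5, a proteasome-binding zinc finger protein, had the smallest p of these, with 0.52 ± 0.41 and 0.50 ± 0.43 (SE), and 0.090 and 0.034 without both libraries numbered 1. Nfe2l1 stood at 274.8, 321.1 and 189.9 CPM in FDM, against 157.6, 268.6 and 284.2 CPM in NC. It was lower in FDM 3 than in the other FDM libraries, as most subunits were, but its lowest library was NC 1. NC 1 was the lowest for 6 of the 46 proteasome genes (13%, against 19.6% of all genes tested). The log2 fold change of Nfe2l1 was 0.15 ± 0.45 (SE). These are RNA values, and the part of this factor in the subunit values was not tested.

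Of 14 genes for ubiquitin and its delivery 12 were positive, with a median of 0.37, and 0 passed. That median was 0.14 without both libraries numbered 1. With total counts only it was 0.084, where all genes had a median of -0.23. Ubb, which encodes a chain of ubiquitin units, stood at 515.6, 378.6 and 1539.7 CPM in FDM, against 231.4, 333.4 and 274.6 CPM in NC. Every FDM library was above every NC library, and FDM 3 was the highest. The groups were separated this way for 2 of the 14 genes, where 2.73% of all genes tested were. The log2 fold change of Ubb was 1.54 ± 0.64 (SE) and 0.60 without FDM 3, and it did not pass. Rps27a, in which ubiquitin is fused to a ribosomal protein, had -0.026 ± 0.56 (SE), and was the lowest in FDM 3. Vcp, the segregase that hands ubiquitinated proteins to the proteasome, had 558.1, 492.4 and 276.7 CPM in FDM, against 241.8, 323.2 and 466.0 CPM in NC.

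FDM 3 also carried the most reads of cytosolic heat shock genes. A list of 12 summed to 13265, 7949 and 37968.5 CPM in FDM, against 7974, 5162 and 7379 CPM in NC. All 12 were positive, with a median of 1.73 (Hsph1 4.42, Ahsa1 1.48), which was 0.75 without FDM 3. Of the 12, 6 had an unadjusted p below 0.05 in edgeR, against 156 of all 16348 genes tested. After adjustment 0 passed in edgeR and 1 in DESeq2. Within FDM, therefore, the library with the most heat shock and Ubb reads had the fewest proteasome reads, 2854 summed CPM against 6752 in FDM 1 and 5592 in FDM 2. Skeletal muscle markers were also lowest of FDM in FDM 3, and fibroblast, photoreceptor, melanocyte and pigment epithelium markers were highest of FDM there. The fibroblast sum in FDM 3 was the highest of all 6 libraries. The part of these tissues in this pattern was not tested.

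**Figure D4:**
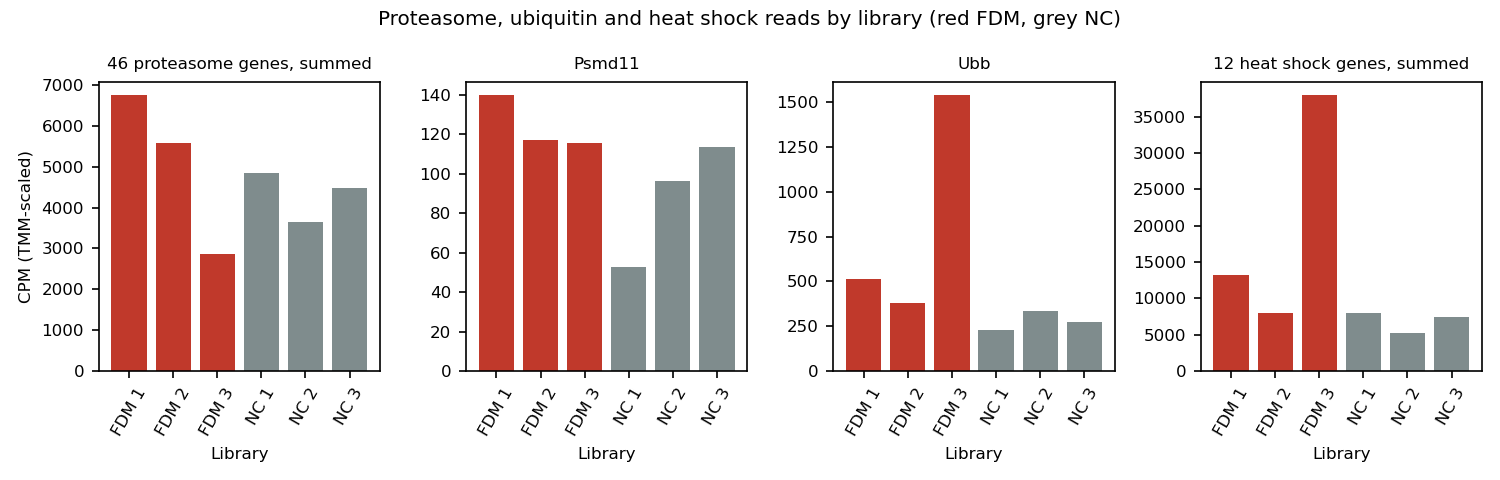
TMM-scaled CPM by library for the 46 proteasome genes summed, Psmd11, the ubiquitin gene Ubb and 12 cytosolic heat shock genes summed (bars start at 0; each panel has its own axis; FDM red, NC grey). FDM 3 is the lowest library in the first panel (2854 CPM) and the highest in the panels of Ubb (1539.7 CPM) and of heat shock genes (37968.5 CPM), while Psmd11 stays at 115.7 CPM.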

How the data were processed

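Per the labels' protocols, Trizol was used for extraction and NEBNext Ultra for library preparation. The authors deposited unnormalized counts per gene for each library, and the submitters' processing notes name Trimmomatic, STAR and HTSeq. The sources used here give no tool version, genome build, annotation, counting mode or strand setting, so reads of overlapping genes, antisense genes and pseudogene copies of proteasome subunits cannot be told apart, and no coordinates are given. CPM values are not divided by gene length. Where reads of different genes are set side by side, as in the immunoproteasome percentages, gene length remains in the values. Such values do not rank the levels of these genes.

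The main test used edgeR 4.0.16 under R 4.3.3. Alternatives used DESeq2 1.42.0 and limma 3.58.1, ratios SciPy 1.17.1 and figures matplotlib 3.10.9. All 46 proteasome genes were among the 16348 that passed filterByExpr. TMM-scaled counts of all 6 libraries were fitted with group as the only term (robust quasi-likelihood in its older form), and p was adjusted by Benjamini-Hochberg over all 16348 genes, with a threshold of 0.05. The fit was run on simulated counts, where recovery of changed genes was required only at a spread far below that of these libraries. That run does not show which changes the fit can detect here. The standard error is the absolute log2 fold change over the square root of F, and 95% intervals use the fit's degrees of freedom. The common biological coefficient of variation was 0.933, which, with 3 libraries a group, sets the precision. A prior count of 2 was set for relative log2 CPM levels, and ratios of genes a pseudocount of 2.

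The proteasome genes and all lists were chosen with earlier results of these data known. Named by rule are Psmd11, the catalytic and immunoproteasome genes with Psme1 and Psme2, the 10 proteasome genes of smallest p, the highest and lowest estimate of each part and the 2 genes of smallest p in each other list; further genes were chosen after their values were seen, and an item the rule named is not reported here. All 46 symbols were in the RefSeq table. Same-numbered libraries of the groups deviated with r of 0.095, 0.034 and -0.15 over 16348 genes, so the numbers were not taken to pair the animals.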

Additional observations from a re-analysis of the deposited data

How the results depend on the processing

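No proteasome gene was called under any alternative run: other scalings and filters, DESeq2, limma-voom (also with sample weights), the newer and the non-robust edgeR fit, the replicate block, an adjusted p below 0.1, each library left out, and both libraries numbered 1 left out. Over all genes DESeq2 called 9, with 8260 adjusted p not given, and the other alternatives 0, with 84 to 536 genes at an unadjusted p below 0.05. The median log2 fold change of the proteasome genes, 0.26, was 0.020 to 0.42 with a single library left out, 0.13 and 0.32 in limma-voom without and with weights, 0.15 with the replicate block and -0.0027 with total counts only. Relative to the median of all genes it was 0.24 as reported, 0.23 with total counts only, -0.041 without FDM 1, 0.60 without FDM 3 and 0.070 without both libraries numbered 1. Single estimates changed sign for 16 genes without FDM 1 and 17 without both libraries numbered 1. With a single library left out the difference of the Psmb8 to Psmb5 log2 ratio ran from -0.076 to 0.65, of Psmb9 to Psmb6 from -0.59 to 0.45 and of Psmb10 to Psmb7 from -0.33 to 0.033; that of Psmb9 to Psmb6 was also below 0, at -0.052, without FDM 1, and the cause of these sign changes was not tested. A replicate block cannot change a difference of group means in this balanced design, so it was no check on these ratios.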
